A study of Mus musculus with 6 samples.

Results

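Collagen genes, the genes for the alpha chains of the collagens, were followed in the cochlear epithelium of mouse explants treated with DAPT, a γ-secretase inhibitor (GSI) that blocks the cleavage of Notch receptors, or with the vehicle DMSO. Members were all genes whose symbol in the probe-to-gene table of the array is Col, digits, a, digits, and which had a cluster of probes naming that gene alone. There were 42 of 20259 genes, and where a gene had several such clusters the one with the highest mean over the 6 arrays was used. In 3 experiments wild type cochleae were taken at E15.5 with the innervating neurons and, per the methods, attached mesenchyme, and cultured with 3.33 µM DAPT or with 0.013% DMSO (control). The labels give 23, 19 and 24 hours of culture for experiments 1, 2 and 3. The study's own text gives a range that holds the 19 hours but ends below the 23 and 24. After culture the explants of each treatment were pooled, the epithelial duct was freed with dispase and collagenase and by hand, and 1 pool for each treatment in each experiment was hybridised to a Mouse Exon 1.0 ST array, giving 3 DAPT and 3 control samples. The mice were of a mixed C57BL/6 and CD-1 background. Arrays read the transcripts of the chains and not the collagen laid down in the matrix.

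Collagens are trimers of alpha chains wound into a triple helix. Types I, III and V form the fibrils of mesenchyme, with types XII, XIV and XVI on their surface and type VI in fine filaments beside them. Type IV is the network of every basement membrane, to which types VII, XV and XVIII attach. Types II, IX and XI are the fibril collagens of cartilage and also of the tectorial membrane, the matrix above the hair cells (HCs) that the cochlear epithelium secretes. The members were therefore described as 15 mesenchymal, 9 basement membrane, 6 tectorial membrane, 4 transmembrane and 8 other collagens. These classes rest on where the chains are known to occur, and several chains occur in more than 1 place. In whole epithelium, fewer cells of a type and less RNA per cell cannot be told apart.

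Values are the authors' log2 signals, and a difference is DAPT minus control on that scale, with its standard error from limma, whose model held a term for treatment and one for each experiment and pooled the variance over genes. Signals of different genes come from different probes, so no gene was ranked against another by its signal, and the median over all genes serves only as a rough mark of dim and bright clusters. The median signal lay between 6.30 and 6.36 over all clusters of the 6 arrays. The Notch targets *Hey1*, at −1.29, and *Jag1*, at −1.24, were lower and the HC factor *Atoh1*, at 1.18, was higher in all 3 experiments, with the DAPT and control arrays apart. Of the markers of epithelium, 10 of 10 had signals above the median of all genes, as had 10 of 14 markers of mesenchyme and 7 of 10 of endothelium. No gene of the 20259 passed an adjusted p of 0.05 for DAPT minus control, and 1592 (7.86%) had an unadjusted p under 0.05 in limma.

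DAPT was accompanied by small differences in the collagens. No collagen passed the adjusted threshold (0.0% of all genes did), and 1 of 42, *Col15a1*, had an unadjusted p under 0.05, where 5.27% of all genes were higher and 2.59% lower at that level. All 42 differences were smaller than 0.3 in size and 31 were smaller than 0.1. The median difference was −0.02 over the collagens and 0.02 over all genes. In all 3 experiments 2 collagens were higher and 5 lower with DAPT, against 19.1% and 10.5% of all genes. For none of the 42 did the 3 DAPT arrays lie wholly above or below the 3 control arrays, which 4.94% and 2.35% of all genes did. The 95% interval of the difference held 0 for 41 of the 42. The outermost bounds of the intervals were 0.62 for *Col1a1* and −0.45 for *Col6a1*.

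**Figure D1:**
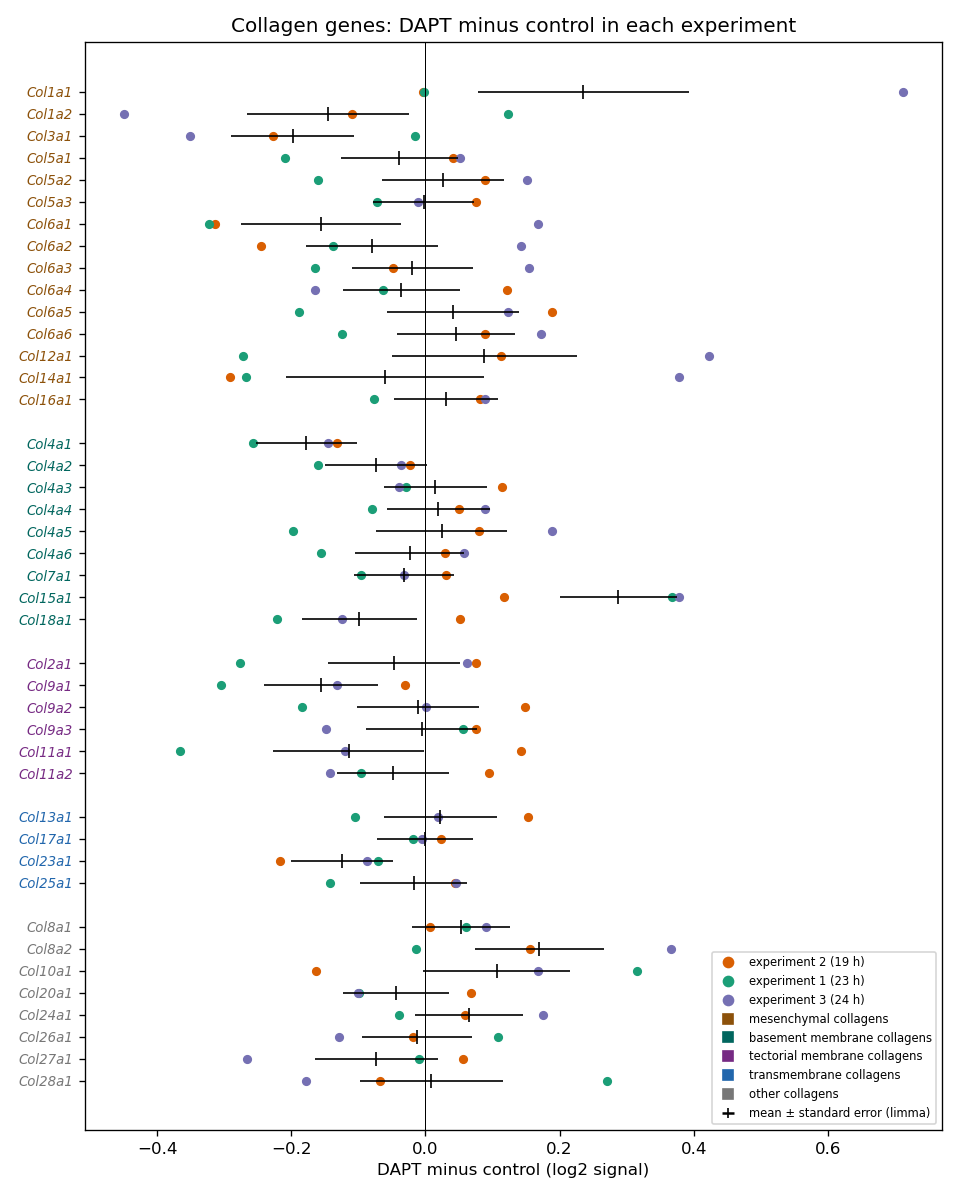
DAPT minus control in log2 signal (horizontal axis) for each of the 42 collagens (rows, coloured by class). Coloured points are the 3 experiments, and the black mark with its bar is the mean with the standard error of limma. Points of most genes fall on both sides of 0, and the widest spread is that of *Col1a1*, from −0.0035 in experiment 2 to 0.71 in experiment 3.

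Windows of 250 bases before to 50 after the start site were taken from RefSeq, build GRCm38.p6, for 34 of the 42 collagens. Those of *Col1a2* and *Col3a1* are shown because these genes had 2 of the 3 widest ranges between experiments, given below, that of *Col15a1* because it was the 1 collagen with an unadjusted p under 0.05 for DAPT, and both windows of *Col18a1* because it ran opposite to the mesenchymal collagens between experiments. Capitals mark, on either strand, the TATA box TATAAA, the CCAAT box CCAAT, and TGGGAA, the core of the site of RBP-J, the DNA-binding partner of Notch. The 3 words share no overlapping match in these windows.
*Col1a2* (chr6:4505368-4505667, + strand): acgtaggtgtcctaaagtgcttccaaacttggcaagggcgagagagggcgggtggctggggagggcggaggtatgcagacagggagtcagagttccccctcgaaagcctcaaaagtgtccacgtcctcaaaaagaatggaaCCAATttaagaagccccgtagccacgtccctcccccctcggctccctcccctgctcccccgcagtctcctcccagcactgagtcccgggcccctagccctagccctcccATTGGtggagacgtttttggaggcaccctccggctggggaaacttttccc
*Col3a1* (chr1:45311288-45311587, + strand): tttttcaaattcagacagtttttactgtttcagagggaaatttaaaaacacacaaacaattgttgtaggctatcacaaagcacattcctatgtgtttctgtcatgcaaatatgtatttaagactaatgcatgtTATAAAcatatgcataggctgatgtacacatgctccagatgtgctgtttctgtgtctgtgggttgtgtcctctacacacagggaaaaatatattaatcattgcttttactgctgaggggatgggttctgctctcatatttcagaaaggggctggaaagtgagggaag
*Col15a1* (chr4:47207762-47208061, + strand): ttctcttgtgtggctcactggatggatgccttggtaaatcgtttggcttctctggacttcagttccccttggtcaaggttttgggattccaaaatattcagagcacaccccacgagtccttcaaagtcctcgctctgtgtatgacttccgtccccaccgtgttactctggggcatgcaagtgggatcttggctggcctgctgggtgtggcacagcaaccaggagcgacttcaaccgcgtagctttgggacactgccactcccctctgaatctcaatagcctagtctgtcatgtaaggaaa
*Col18a1*, first window (chr10:77166481-77166780, - strand): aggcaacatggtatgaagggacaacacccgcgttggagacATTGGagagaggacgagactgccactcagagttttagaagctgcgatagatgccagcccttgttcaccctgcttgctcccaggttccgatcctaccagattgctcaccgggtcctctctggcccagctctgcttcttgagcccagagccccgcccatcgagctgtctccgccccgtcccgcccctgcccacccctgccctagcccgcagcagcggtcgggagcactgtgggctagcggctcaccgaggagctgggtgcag
*Col18a1*, second window (chr10:77113656-77113955, - strand): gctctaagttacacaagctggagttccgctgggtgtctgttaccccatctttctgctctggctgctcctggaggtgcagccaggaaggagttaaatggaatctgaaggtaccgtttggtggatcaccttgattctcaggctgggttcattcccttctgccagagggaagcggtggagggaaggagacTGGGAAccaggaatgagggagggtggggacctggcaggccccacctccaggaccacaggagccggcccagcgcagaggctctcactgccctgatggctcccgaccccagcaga

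The *Col1a2* window held CCAAT at position −109, counted from the start site at 0, and again on the other strand at the start site. *Col3a1* held TATAAA at −117. *Col15a1* held none of the 3 words. The first *Col18a1* window held CCAAT on the other strand at −210, and the second held TGGGAA at −63. Over the 34 collagens, which have 37 windows, TGGGAA stood in 12 windows, or 32.4%, against 25.6% of 32851 windows of all genes. CCAAT stood in 13, or 35.1%, against 37.4%, and TATAAA in 5, or 13.5%, against 13.6%. These are matches of letters in a window and say nothing of binding.

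The 15 mesenchymal collagens were *Col1a1*, *Col1a2*, *Col3a1*, *Col5a1*, *Col5a2*, *Col5a3*, *Col6a1*, *Col6a2*, *Col6a3*, *Col6a4*, *Col6a5*, *Col6a6*, *Col12a1*, *Col14a1* and *Col16a1*. None passed the test with DAPT, none had an unadjusted p under 0.05, and their median difference was −0.02. *Col3a1*, which encodes the chain of type III fibrils, was the only one lower in all 3 experiments. Here and below the 3 values of a group belong to experiments 1, 2 and 3 in that order. *Col3a1* had log2 signals of 8.04, 8.71 and 9.34 in DAPT samples, against 8.05, 8.93 and 9.69 in control samples. The difference was −0.20 (standard error 0.09, 95% interval from −0.42 to 0.03, adjusted p = 0.679 in limma). The groups overlapped, with the arrays of experiment 1 low and those of experiment 3 high under either treatment.

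Type I collagen, the main fibril of mesenchyme and bone, is built of 2 kinds of chain. The pro-alpha-1 gene *Col1a1* had 8.57, 8.95 and 10.13 in DAPT samples, against 8.57, 8.96 and 9.42 in control samples. The pro-alpha-2 gene *Col1a2* had 8.51, 9.39 and 9.86 in DAPT samples, against 8.39, 9.50 and 10.31 in control samples. In experiments 1 and 2 *Col1a1* was nearly level, while DAPT minus control for *Col1a2* was 0.12 and −0.11. In experiment 3 the chains moved apart, with DAPT minus control at 0.71 for *Col1a1* and at −0.45 for *Col1a2*. The gap between the chains was 1.16 in experiment 3, against 0.13 in experiment 1 and 0.11 in experiment 2. There is 1 pair of pools an experiment, so this gap has no replicate. The mean differences were 0.24 (standard error 0.16) and −0.15 (standard error 0.12), and without experiment 3 they were −0.0027 and 0.0069. That last value, for *Col1a2*, is a mean of differences of opposite sign.

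The 3 chains of the classical type VI filament had differences of the same signs. *Col6a1* had 8.71, 9.24 and 10.22 in DAPT samples, against 9.03, 9.55 and 10.05 in control samples. Its differences in the 3 experiments were −0.32, −0.31 and 0.17. Those of *Col6a2* were −0.14, −0.24 and 0.14, and those of *Col6a3* −0.17, −0.05 and 0.15. All were below 0 in experiments 1 and 2 and above 0 in experiment 3, and none passed the test. *Col12a1*, a collagen on the surface of fibrils, had 7.81, 8.39 and 9.75 in DAPT samples, against 8.08, 8.28 and 9.33 in control samples, and its 3 differences, −0.27, 0.11 and 0.42, ran both ways as well. For *Col5a2*, a chain of type V fibrils, the signals were 7.75, 8.52 and 9.11 in DAPT samples, against 7.91, 8.43 and 8.96 in control samples, and the difference was 0.03 (standard error 0.09). *Col6a4* and *Col6a5* encode further, related chains of the type VI family. Signals of *Col6a4* were 8.38, 8.72 and 8.74 in DAPT samples, against 8.45, 8.59 and 8.91 in control samples. Those of *Col6a5* were 7.06, 6.54 and 6.71 in DAPT samples, against 7.25, 6.35 and 6.59 in control samples. Their differences of −0.04 and 0.04 lay within their standard errors of 0.09 and 0.10.

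**Figure D2:**
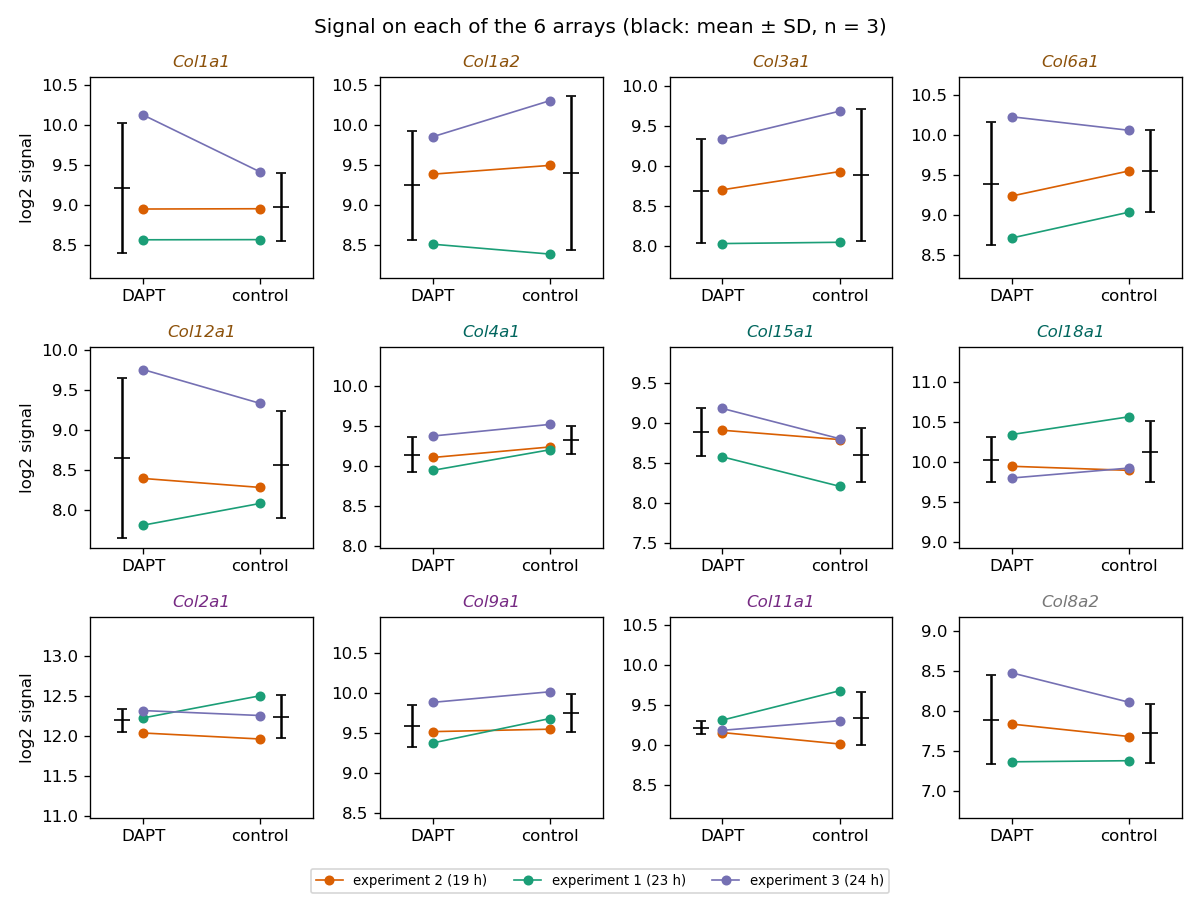
Log2 signal (vertical axis, the same span in every panel) of 12 collagens in DAPT and control samples. Lines join the 2 arrays of an experiment, and black marks are the mean ± SD of 3 arrays. The lines of *Col3a1*, *Col1a2*, *Col6a1* and *Col12a1* lie farther apart between experiments than they tilt between treatments, while *Col15a1* slopes the same way in all 3 experiments.

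The 9 basement membrane collagens were *Col4a1*, *Col4a2*, *Col4a3*, *Col4a4*, *Col4a5*, *Col4a6*, *Col7a1*, *Col15a1* and *Col18a1*, with a median difference of −0.02. *Col15a1* encodes a proteoglycan collagen of the outer face of basement membranes, found around vessels, nerve and muscle. It had 8.57, 8.91 and 9.18 in DAPT samples, against 8.21, 8.79 and 8.80 in control samples. Each DAPT array lay above the control array of its experiment, by 0.37, 0.12 and 0.38, although the groups overlapped. The mean difference of 0.29 (standard error 0.09, 95% interval from 0.07 to 0.50), a factor of 1.22, was the largest of the 42 in size. Its p was 0.0173 before and 0.469 after adjustment over all genes in limma. Of the other collagens only *Col8a1*, at 0.05 (standard error 0.07), was higher in all 3 experiments. Without the block by experiment the p of *Col15a1* was 0.216, and without experiment 1 or 3 it was 0.0629 or 0.0842.

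The main chains of type IV collagen were lower in all 3 experiments. *Col4a1* had 8.94, 9.10 and 9.37 in DAPT samples, against 9.20, 9.23 and 9.52 in control samples. DAPT minus control came to −0.18 (standard error 0.08, adjusted p = 0.648 in limma). For *Col4a2*, which the annotation places next to *Col4a1* on chromosome 8, the difference was −0.07 (standard error 0.08). The 2 chains ran side by side, with values of −0.26, −0.13 and −0.15 for *Col4a1* and −0.16, −0.02 and −0.04 for *Col4a2*. Neither passed the test. Chains that form the specialised type IV networks differed less. *Col4a5*, on the X chromosome, had 7.71, 7.55 and 7.65 in DAPT samples, against 7.90, 7.47 and 7.46 in control samples. Its neighbour *Col4a6* had 6.95, 6.63 and 6.57 in DAPT samples, against 7.10, 6.60 and 6.51 in control samples. Their differences of 0.02 and −0.02 were small beside standard errors of 0.10 and 0.08, as were 0.01 for *Col4a3* and 0.02 for *Col4a4*. *Col18a1*, whose chain carries endostatin at its end, had 10.35, 9.95 and 9.80 in DAPT samples, against 10.57, 9.90 and 9.93 in control samples. Its difference was −0.10 (standard error 0.09), and *Col7a1*, the anchoring fibril gene, had −0.03.

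All 6 tectorial membrane collagens had mean differences below 0, with a median of −0.05 that became 0.0107 with array weights, and none had an unadjusted p under 0.05. They were *Col2a1*, *Col9a1*, *Col9a2*, *Col9a3*, *Col11a1* and *Col11a2*. *Col9a1*, a chain of type IX, which coats type II fibrils, had 9.38, 9.52 and 9.88 in DAPT samples, against 9.68, 9.55 and 10.01 in control samples. It was the 1 member of the class that was lower in all 3 experiments, at −0.16 on average (standard error 0.09, 95% interval from −0.37 to 0.05, adjusted p = 0.733 in limma). Its partner chains *Col9a2* and *Col9a3* differed by −0.01 and −0.0056. *Col2a1*, the chain of type II fibrils, had 12.22, 12.04 and 12.32 in DAPT samples, against 12.50, 11.96 and 12.25 in control samples. The difference was −0.05 (standard error 0.10). *Col11a1*, which sets the width of type II fibrils, had 9.31, 9.16 and 9.19 in DAPT samples, against 9.68, 9.01 and 9.31 in control samples. *Col11a2*, a gene of human deafness, had 8.95, 8.68 and 8.73 in DAPT samples, against 9.04, 8.58 and 8.87 in control samples. Both were lower with DAPT in experiments 1 and 3 and higher in experiment 2. The sign of the class median was not the same in each experiment. It was −0.23 in experiment 1, 0.09 in experiment 2 and −0.13 in experiment 3.

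Of the 4 transmembrane collagens, *Col23a1* was lower with DAPT in all 3 experiments. Its signals were 7.28, 7.51 and 7.89 in DAPT samples, against 7.35, 7.73 and 7.98 in control samples, and the difference was −0.12 (standard error 0.08, adjusted p = 0.769 in limma). *Col13a1*, which acts at nerve-muscle junctions, had 7.37, 7.62 and 7.71 in DAPT samples, against 7.48, 7.46 and 7.69 in control samples. *Col25a1*, which motor axons need to enter muscle, had 7.01, 7.34 and 7.46 in DAPT samples, against 7.15, 7.30 and 7.42 in control samples. *Col17a1*, the hemidesmosome collagen of skin, differed by less than 0.01 in size. The signals of all 4 lay below the median of all genes.

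The 8 other collagens were *Col8a1*, *Col8a2*, *Col10a1*, *Col20a1*, *Col24a1*, *Col26a1*, *Col27a1* and *Col28a1*. *Col8a2*, a network collagen known from the cornea, had 7.36, 7.83 and 8.47 in DAPT samples, against 7.38, 7.68 and 8.11 in control samples, and DAPT minus control was −0.01, 0.16 and 0.37 in the 3 experiments and 0.17 on average (standard error 0.10). The mean difference of *Col10a1*, the marker of hypertrophic cartilage, was 0.11 (standard error 0.11). It had 6.81, 6.83 and 6.64 in DAPT samples, against 6.50, 7.00 and 6.48 in control samples, and it was below the median of all genes. *Col27a1*, a fibrillar collagen of cartilage, had 9.49, 9.24 and 9.12 in DAPT samples, against 9.50, 9.19 and 9.38 in control samples, a difference of −0.07 (standard error 0.09). *Col20a1* had 7.34, 7.53 and 7.36 in DAPT samples, against 7.44, 7.46 and 7.46 in control samples, and *Col28a1* had 6.99, 6.79 and 6.67 in DAPT samples, against 6.72, 6.86 and 6.85 in control samples. None of these differences exceeded 2 standard errors. *Col19a1* shared its only named cluster with another gene and *Col22a1* had no one-gene cluster in the table, so neither was analysed here.

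For 5 collagens more than 1 cluster carried the gene's name, and in each of them at least 1 dimmer cluster differed in sign from the one used. The second cluster of *Col6a4*, with a mean signal of 7.17, had DAPT minus control of 0.63, 0.21 and 0.27 in experiments 1, 2 and 3, where the brightest had −0.06, 0.12 and −0.17. A second cluster of *Col5a2*, with a mean signal of 4.16, had −0.32 on average, and a second cluster of *Col28a1* −0.31. For *Col6a5* the second cluster had −0.24, and for *Col8a2* the second cluster was level while its experiments ran from −0.55 to 0.80. The dimmer clusters of *Col5a2* and *Col8a2*, at mean signals of 4.16 and 5.28, were below the array medians. So were the dimmest of *Col28a1*, at 4.63, and of *Col6a4*, at 5.67, and clusters of *Col6a5* at 5.94 and 5.43. Single-gene statements on these 5 therefore hold for the brightest cluster only. The other 37 collagens had 1 cluster.

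More collagens passed the adjusted threshold between experiments than between treatments. For all 42 collagens the range of the 3 experiment means exceeded the size of the DAPT difference, which was so for 17403 of the 20259 genes. That range runs from the lowest to the highest of 3 means, while the DAPT difference is a mean of signed values. These measures are unlike, so the count does not weigh experiments against treatments. Between experiments 12 collagens differed at an adjusted p under 0.05 in limma (5.17% of all genes did, and 12 of 42 is 28.6%). Of these 8 were mesenchymal collagens, out of 15, and none were of the basement membrane or tectorial membrane classes. The others were *Col8a2*, with experiment 3 minus experiment 1 at 0.92, its partner chain *Col8a1*, at 0.77, *Col26a1*, at 0.70, and *Col23a1*, at 0.62. Removing 1 array lowers the residual degrees of freedom to 1, and the 12 then became 0 without DAPT replicate 1 or without control replicate 1, 2 without DAPT replicate 3, 5 without DAPT replicate 2, 6 without control replicate 2 and 8 without control replicate 3. Fewer of all genes passed as well in each of these fits, and none without either array of experiment 1.

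*Col1a2* was highest in experiment 3 and lowest in experiment 1 with both treatments, and experiment 3 exceeded experiment 1 by 1.63, a factor of 3.09 (adjusted p = 0.0211 between experiments in limma). *Col12a1* followed with 1.59 (adjusted p = 0.0242) and *Col3a1* with 1.47 (adjusted p = 0.0162). These 3 had the widest range among the mesenchymal collagens. *Col6a1*, *Col6a3*, *Col5a2* and *Col1a1* lay between 1.20 and 1.27. *Col6a6* also passed but was highest in experiment 2, with experiment 2 minus experiment 1 at 0.91 and experiment 3 minus experiment 1 at 0.77. In 11 of the 15 both arrays of experiment 1 lay below the other 4 arrays (17.9% of all genes), and in 12 of 15 both arrays of experiment 3 lay above the others (10.6% of all genes). *Col6a5* was highest in experiment 1, with −0.51, and it and *Col5a1*, *Col5a3*, *Col6a2*, *Col6a4*, *Col14a1* and *Col16a1* did not pass over the 3 experiments. Culture time, dissection and hybridisation cannot be told apart here.

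Pair by pair, the experiments stood apart to unequal degrees. Experiment 3 minus experiment 1 passed an adjusted p of 0.05 in limma for 15 higher collagens (3.85% of all genes) and for 2 lower ones (4.9%). Experiment 2 minus experiment 1 passed for 5 higher collagens (1.43% of all genes), with *Col1a2* at 0.99, *Col3a1* at 0.78, *Col5a2* at 0.64 and *Col26a1* at 0.60 beside *Col6a6*, and for 1 lower (1.4%), *Col6a5* at −0.72. Between experiments 3 and 2 no collagen passed, where 0.0148% of all genes passed as higher and 0.00494% as lower. In 8 of the 42 both arrays of experiment 1 lay above the other 4 (16.4% of all genes), and 3 of these were basement membrane and 3 tectorial membrane collagens. 

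**Figure D3:**
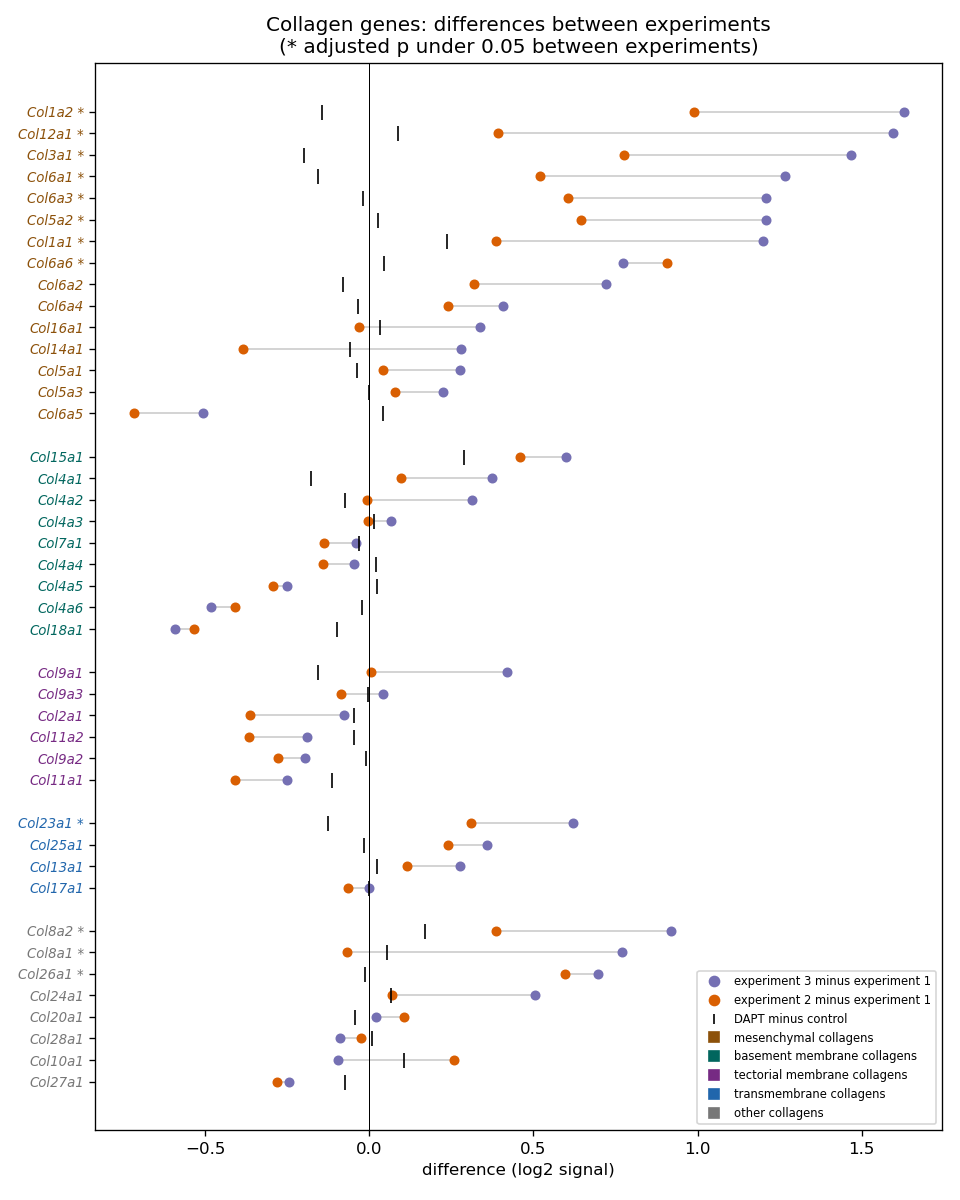
Differences between experiments in log2 signal (horizontal axis) for the 42 collagens, sorted within class. Purple and orange points are experiment 3 and experiment 2, each minus experiment 1, and black marks are DAPT minus control. The mesenchymal collagens spread to 1.63 on the right, the basement membrane and tectorial membrane classes lie on both sides of 0, and the black marks stay within 0.3 of it.

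The basement membrane collagens split between the experiments. *Col15a1* was higher in experiment 3 than in experiment 1 by 0.60 (adjusted p = 0.0297 for that contrast in limma). *Col18a1*, at −0.59, and *Col4a6*, at −0.48, were lower in experiment 3 and passed the same contrast, with adjusted p = 0.029 and 0.042. These 3 did not pass over all 3 experiments, with adjusted p = 0.0575, 0.0505 and 0.0746. *Col4a1* had 0.37 and *Col4a2* 0.31, and neither passed. The widest ranges in the tectorial membrane class, none of which passed, were those of *Col9a1*, with experiment 3 minus experiment 1 at 0.42, of *Col11a1*, with experiment 2 minus experiment 1 at −0.41, and of *Col11a2*, at −0.37 in the same contrast. The class median of experiment 3 minus experiment 1 was −0.13 for the tectorial membrane, −0.04 for the basement membrane and 0.77 for the mesenchymal collagens, against 0.0015 over all genes.

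Marker lists of mesenchyme, endothelium and neurons had a lowest mean in experiment 1 with both treatments, as the mesenchymal collagens had, and that of epithelium had its highest there. The mean log2 signal over 14 of 15 mesenchyme markers was 8.38, 8.68 and 8.99 in DAPT samples, against 8.26, 8.71 and 8.95 in control samples, and over the 15 mesenchymal collagens it was 8.07, 8.44 and 8.99 in DAPT samples, against 8.20, 8.47 and 8.89 in control samples. Of the 14 markers 13 were higher in experiment 3 than in experiment 1, among them the otic mesenchyme factor *Pou3f4*, at 0.92, and *Pdgfra*, at 1.53, and *Lum* was lower, at −0.67. All 10 endothelium markers, with *Kdr* at 1.66, and all 7 neuron markers, with *Nefl* at 1.83, were higher too. Their mean signals were 7.65, 8.16 and 8.46 in DAPT samples, against 7.40, 8.17 and 8.47 in control samples for endothelium and 7.97, 8.82 and 8.97 in DAPT samples, against 7.77, 8.70 and 8.99 in control samples for neurons. All 10 epithelium markers were lower in experiment 3 than in experiment 1, with *Cldn4* at −1.04 and *Epcam* at −0.25, and their mean signal was 10.69, 10.26 and 9.88 in DAPT samples, against 10.56, 10.32 and 9.98 in control samples. The part of these cells in the collagen signals was not tested. With DAPT minus control the medians of the mesenchyme and endothelium lists were 0.07 and 0.06, and that of 8 pericyte markers was −0.35. An unadjusted p under 0.05 in limma was found for 4 of these (2.59% of all genes were lower at that level). They were *Pdgfrb* at −0.53, *Rgs5* at −0.57, *Abcc9* at −0.90 and *Kcnj8* at −0.63. The others were *Acta2* at −0.17, *Cspg4* at −0.04, *Myh11* at −0.02 and *Tagln*, which was higher, at 0.11. *Pdgfrb* and *Rgs5* are in a gene table that the study drew from these arrays, so they are not independent evidence. *Abcc9*, like *Pdgfrb* and *Rgs5*, is among the genes of the study's qPCR primers. The pericyte list averaged 7.62, 7.90 and 7.85 in DAPT samples, against 7.79, 8.29 and 8.31 in control samples, beside the *Col4a1* and *Col4a2* values above, and its part in them was not tested.

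Single markers with an unadjusted p under 0.05 for DAPT minus control pointed both ways. Of mesenchyme, *Osr1* was at 0.44, *Postn*, the periostin gene, at −0.32 and *Dpt* at −0.29. Of epithelium, *Cldn3* was at 0.31, *Cldn4* at 0.21 and *Krt8* at −0.28, and of endothelium *Kdr* was at 0.24. Of 9 cartilage markers *Matn1*, a matrilin gene, was at 0.44 and *Ucma* at 0.43, beside a median of −0.05 for the type II, IX and XI collagens, which cartilage also makes. The cartilage list averaged 7.90, 8.06 and 8.41 in DAPT samples, against 7.96, 7.88 and 8.24 in control samples, and its part in those collagens was not tested. All 5 HC markers were higher, with *Pou4f3* at 1.11, *Calb2* at 1.00, *Myo7a* at 0.48 and *Myo6* at 0.25 beside *Atoh1*, and all 4 Notch readouts were lower, with *Heyl* at −1.17 and *Hes5* at −0.56 beside *Hey1* and *Jag1*.

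Between experiments, 6 macrophage markers had a median of 0.50 for experiment 3 minus experiment 1, 9 cartilage markers of 0.34 and 5 of 7 glia markers of −0.23. The glia list was split, so its median stands for no common direction. *Foxd3*, at 1.00, and *Cdh19*, at 1.32, were higher, and *Sox10*, at −0.76, *Erbb3*, at −0.31, and *Mbp*, at −0.23, were lower. Of the 9 cartilage markers 7 were higher in experiment 3 than in experiment 1, with *Acan*, the aggrecan gene, at 0.72, and *Matn1*, at −0.36, and *Cnmd*, at −0.19, were lower. Of the 6 type II, IX and XI collagens 2 were higher, *Col9a1* and *Col9a3*, and 4 were lower.

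**Figure D4:**
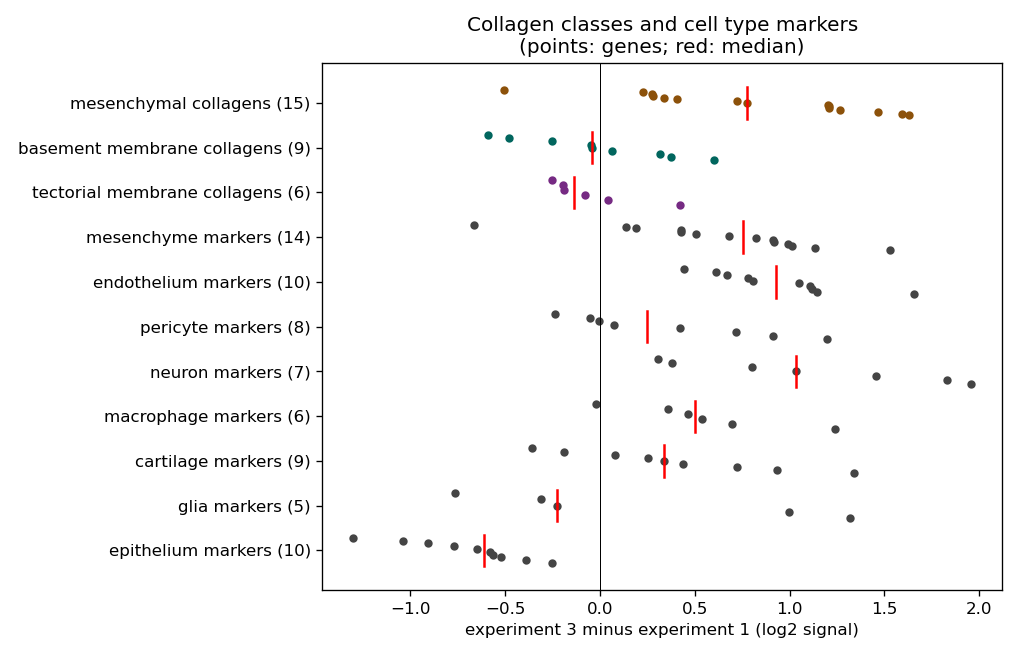
Experiment 3 minus experiment 1 in log2 signal (horizontal axis) for the genes of 3 collagen classes and 8 marker lists, with the number of genes measured in brackets. Each point is a gene and the red line the median. The median of the mesenchymal collagens, 0.77, lies beside that of the mesenchyme markers, 0.75, and the epithelium markers lie on the other side of 0, at −0.61.

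The genes that fold, modify and bind collagen were followed from fixed lists. Of 20 measured genes of folding and modification, 0 passed over all genes and 4 had an unadjusted p under 0.05, all lower (2.59% of all genes were lower at that level and 5.27% higher). *Colgalt2*, which encodes an enzyme that adds galactose to hydroxylysine, had 9.19, 9.11 and 8.96 in DAPT samples, against 10.03, 9.50 and 9.75 in control samples, with no overlap. DAPT minus control came to −0.67 (standard error 0.11, adjusted p = 0.235 in limma). Its relative *Colgalt1* had −0.0084 (standard error 0.08). *Fkbp14*, a prolyl isomerase gene of the endoplasmic reticulum, had 7.86, 7.88 and 7.94 in DAPT samples, against 8.10, 8.17 and 8.24 in control samples, a difference of −0.27 (standard error 0.07) that was also without overlap. *Plod2*, the lysyl hydroxylase gene of collagen cross-links, was at −0.26 and *Mia3*, which exports collagen from the endoplasmic reticulum, at −0.21. The study chose *Colgalt2* on these arrays, so its array values are not independent evidence. By RT-qPCR the study also reports it lower with DAPT, and lower in vivo where Notch-driven transcription was inhibited genetically. The chaperone gene *Serpinh1* had −0.15 (standard error 0.09) and *P4hb* −0.13, and the list median was −0.07. Of the 20 genes 3 were lower without overlap, against 2.35% of all genes. *P4hb* was among them, though its unadjusted p was not under 0.05 in limma.

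Of 8 measured collagen receptors, 1 was lower and 2 were higher at an unadjusted p under 0.05, beside 2.59% and 5.27% of all genes. *Adgrg6* (*Gpr126* in the study), an adhesion receptor that binds type IV collagen, had 8.14, 7.89 and 8.01 in DAPT samples, against 9.05, 8.34 and 8.50 in control samples. DAPT minus control came to −0.62 (standard error 0.11, adjusted p = 0.277 in limma). It too was chosen by the study on these arrays, so its array values are not independent evidence. The study also reports it lower with DAPT by RT-qPCR. That held in cochlear epithelium and, from technical replicates, in sorted supporting cells, the cells that surround the HCs. In vivo the study reports it higher where Notch was activated genetically. The gene *Adgrg1*, of an adhesion receptor that binds type III collagen in brain, had 0.22. *Ddr2*, the receptor kinase of fibrillar collagens, had 9.94, 11.60 and 12.36 in DAPT samples, against 9.74, 11.47 and 11.96 in control samples, a difference of 0.24 (standard error 0.09). Between experiments *Ddr2* differed by more than any collagen, with experiment 3 minus experiment 1 at 2.32 (adjusted p = 0.0112 between experiments). None of 10 measured genes of trimming and cross-linking and none of 14 basement membrane partners had an unadjusted p under 0.05 with DAPT.

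Of the 6 non-collagen genes of the tectorial membrane and its attachment, *Tectb*, which encodes β-tectorin, had 11.35, 11.20 and 10.80 in DAPT samples, against 11.54, 11.42 and 11.32 in control samples. DAPT minus control came to −0.31 (standard error 0.10, adjusted p = 0.474 in limma). *Otoa*, the otoancorin gene, was at 0.27 (standard error 0.09). *Tecta*, with −0.11, *Otog*, with −0.09, *Otogl*, with −0.11, and *Ceacam16*, with 0.07, had no unadjusted p under 0.05, as none of the 6 tectorial membrane collagens did.

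**Figure D5:**
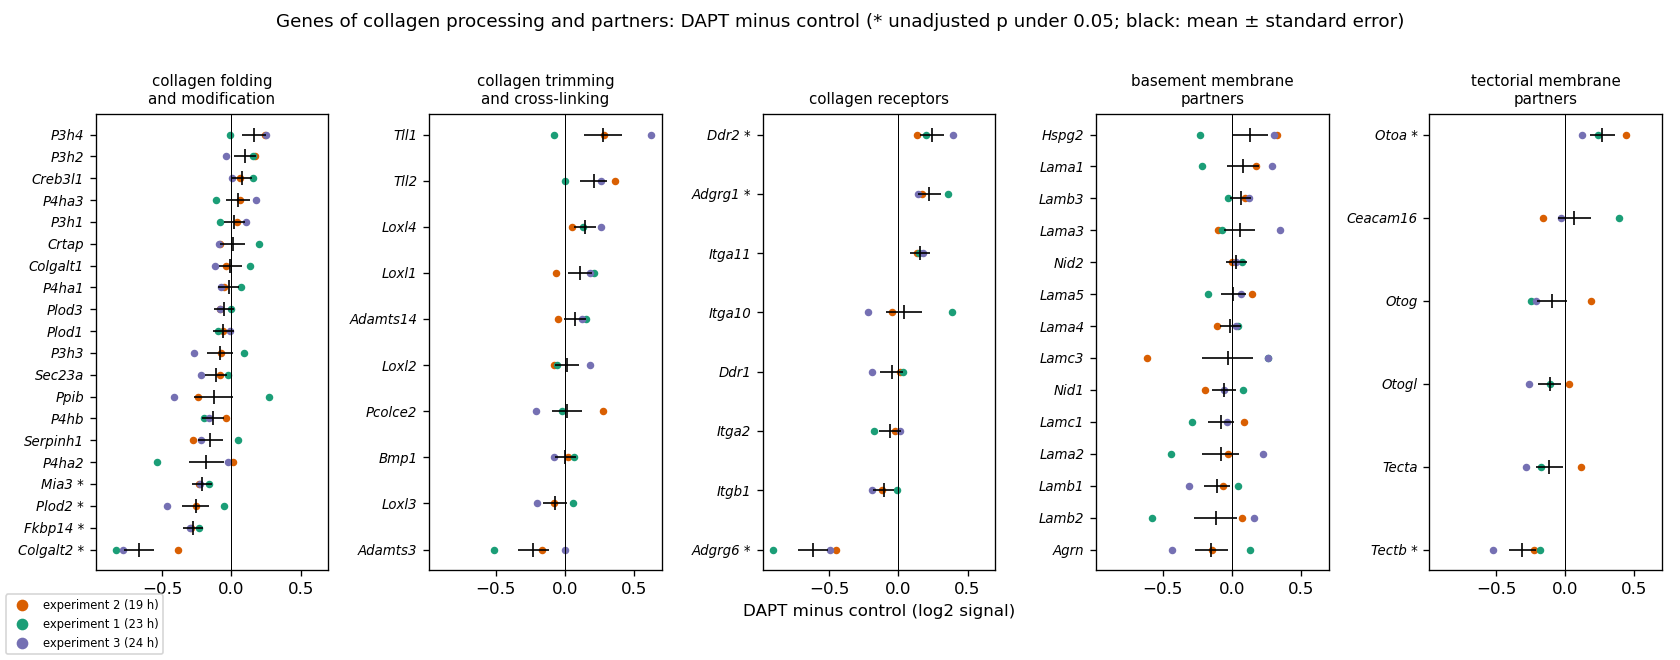
DAPT minus control in log2 signal (horizontal axis) for the measured genes of 5 fixed lists. Coloured points are the 3 experiments, black marks the mean ± standard error, and asterisks an unadjusted p under 0.05. *Colgalt2*, at −0.67, and *Adgrg6*, at −0.62, lie farthest to the left.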

How the data were processed

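RNA of 3 DAPT and 3 control pools was hybridised to Affymetrix exon arrays. Probe sets of the extended kind were summarised by the authors with Partek, RMA and quantile normalization, and what they deposited is 1 log2 signal for each transcript cluster and array. Of genome builds, mm9 is named in the submitters' notes. Quantile normalization sets all arrays to 1 distribution, so a shift of most genes would not be seen. Of 115830 clusters, 25539 named 1 gene, 2300 several and 87991 none in the array's table, which gave 20259 genes. The effect of DAPT was fitted in limma 3.58.1 under R 4.3.3 (lmFit, eBayes) with the experiment as a block, and the experiments by the moderated F over its terms, with Benjamini-Hochberg adjustment over all genes at 0.05. The fit was tested on simulated data. The block follows the series design of 1 control and 1 DAPT sample in each experiment, while a one-way model, which its results text names, was an alternative. Replicate numbers pair the samples, since the deviations of DAPT and control arrays correlated across genes at 0.556, 0.434 and 0.513 within experiments and at most at 0.00925 between them. Deviations were from the group mean and cancel within a group. The low values between experiments thus follow in part from those within and are no separate support. Pools come from separate experiments, and 3 pairs limit the precision.

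The members and gene lists were chosen with earlier results of these data known. Every collagen is named, and values per array are given for those with an unadjusted p under 0.05, the 2 largest differences each way in each class, those whose clusters differ in sign, and the 3 widest between experiments in the first 3 classes. Some genes of the pathway and marker lists were not analysed here, and the counts give how many were measured. Tables and figures used Python 3.11.15, pandas 2.3.3, numpy 2.4.6 and matplotlib 3.10.9.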

Additional observations from a re-analysis of the deposited data

How the results depend on the processing

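No collagen passed the adjusted threshold in either direction under any of the 13 planned settings. Of all genes 0 to 30 passed under them, the most with array weights, so the absence of calls is not particular to the collagens. The 1 collagen with a higher signal at an unadjusted p under 0.05 became 0 with no replicate block and 0 without pooled variances, whether one-way or paired. Leaving out an experiment gave 0 or 1 higher and 0 to 2 lower collagens, and these were not the same genes throughout. Without experiment 1 they were *Col8a2*, higher, and *Col3a1*, lower. Without experiment 2 *Col15a1* was higher, and without experiment 3 *Col6a1* and *Col14a1* were lower. The 0 lower collagens became 1 in the paired comparison without pooled variances, with array weights, with median centring and with the filter at the median signal. That gene was *Col3a1* with array weights and *Col4a1* in the others. With no replicate block 593 of all genes had an unadjusted p under 0.05, against 1592 with it, and no other collagen's call changed.

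The class medians of DAPT minus control were close to 0 and had no stable sign. With array weights all changed sign, to 0.0212 for the mesenchymal, 0.0061 for the basement membrane, 0.0107 for the tectorial membrane and 0.0119 for the transmembrane collagens. Leaving out an experiment gave −0.0359 to 0.0461, −0.0587 to 0.0367, −0.1133 to −0.0064 and −0.0461 to 0.0268 for these classes in that order. That of the 8 other collagens, 0.0306, was −0.0028 with array weights, 0.0048 with quantile normalization again, −0.0131 with the filter at the median signal and 0.0085 with that at the 25th percentile, and lay between −0.0071 and 0.0573 when an experiment was left out. The filters leave fewer members.

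Several small differences of single members changed sign, and the cause was not tested. With array weights *Col6a4* had 0.0212, *Col4a6* 0.0061, *Col11a2* 0.0058, *Col25a1* 0.0145, *Col10a1* −0.0053 and *Col28a1* −0.0409. *Col28a1* also had −0.0274 with quantile normalization again and −0.0068 with median centring. With the mean of all clusters *Col5a2* had −0.1488, *Col6a4* 0.1543 and *Col28a1* −0.0853. When an experiment was left out, the ranges were −0.0027 to 0.3551 for *Col1a1*, −0.2799 to 0.0069 for *Col1a2*, −0.0359 to 0.1198 for *Col5a2*, −0.1145 to 0.029 for *Col6a4*, −0.0325 to 0.1561 for *Col6a5*, −0.0799 to 0.2677 for *Col12a1*, −0.0587 to 0.1345 for *Col4a5*, −0.0638 to 0.0429 for *Col4a6*, −0.2435 to 0.0111 for *Col11a1*, −0.0434 to 0.0862 for *Col13a1*, −0.0494 to 0.0447 for *Col25a1*, −0.1379 to 0.0232 for *Col27a1* and −0.123 to 0.1016 for *Col28a1*.

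The 12 collagens that differed between experiments were 9 to 17 and the 8 mesenchymal ones 7 to 10 under the other planned settings. The counts of all collagens mostly rose and fell with those over all genes. The 9 came with array weights, where 683 of 20259 genes passed. The 17 came with the filter at the 25th percentile, where 1658 of 15194 did. An exception was the filter at the median signal, which left 27 of the 42 collagens. There 1466 of 10130 genes passed, and the counts stayed at 12 and 8. Leaving out single arrays, added after seeing the data, gave 0 to 8 for both. With 3 pairs and 1 array a treatment and experiment, precision is limited, and 15 of the 42 collagens, all 4 transmembrane ones among them, had signals below the median of all genes.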
